A study of Mus musculus with 13 samples.

Results

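A set of 9 genes that act on YAP1 was followed through the RNA sequencing of mouse hemispheres of which some express an active, nuclear form of it. The genes were chosen by name from 48795 in the table and comprise the kinases Lats1 and Lats2, the angiomotins Amot, Amotl1 and Amotl2, the Ajuba family LIM proteins Ajuba, Limd1 and Wtip, and the tyrosine phosphatase gene Ptpn14. All 9 passed the filter on low counts. The right hemisphere of the brain, without olfactory bulb and cerebellum, was sequenced at postnatal day 11 on the C57BL/6J strain background. The nlsYAP5SA mice (5 animals) had the genotype NexCre +/- YAP5SAnls +/-, the controls (5 animals) were littermates with NexCre -/- YAP5SAnls +/-, and the C57BL/6 group (3 animals) was wild type and not littermate. The transgene, which the control mice carried too, encodes a YAP1 phosphomutant with a nuclear localisation signal behind a floxed STOP, and so needs Cre. NEX-Cre is a knock-in at Neurod6 that expresses Cre in a lineage of neuronal precursors, so that the sequenced tissue mixes recombined with unrecombined cells.

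In the Hippo pathway, the kinases LATS1 and LATS2 phosphorylate YAP1 and its paralogue TAZ, which keeps them in the cytoplasm and marks them for degradation. Unphosphorylated YAP1 enters the nucleus and drives transcription with the TEAD factors. Angiomotins hold YAP1 at junctions and actin filaments and promote LATS activity, PTPN14 binds YAP1 and favours its cytoplasmic location, and the Ajuba family LIM proteins act in the other direction by binding and restraining LATS kinases. Several of these genes are known targets of YAP1 in other cells, and a pathway output that raises its own inhibitors is a negative feedback loop. The phosphomutant lacks the serines that LATS kinases act on.

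Sequences upstream of the genes are shown first, because TEAD factors bind the letters GGAATG and their reverse complement CATTCC. RefSeq windows on GRCm38.p6, from 250 bases before to 50 after the start of a gene, were found for 8 of the 9 genes, with 2 windows for Lats2 and none for Limd1. GGAATG, searched on both strands, occurred in 14.7% of 32851 windows of 300 bases. It was present in windows of Lats2, Amotl2, Ajuba, Ptpn14 and Wtip and not in those of Lats1, Amot and Amotl1. Each stretch below is read 5′ to 3′ in the direction of its gene, with the match in capitals, and the position counts from the start site to the first base of the match. The stretches stand for the genes that were higher in nlsYAP5SA and, as a counterexample, for Wtip, whose window held 4 matches.
Lats2, 5 bases into the transcript, minus strand, chr14:57746102-57746131: cgtgacgcccgtGGAATGccaacaatgtag
Amotl2, position -65, plus strand, chr9:102717727-102717756: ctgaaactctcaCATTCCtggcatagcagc
Ajuba, position -186, minus strand, chr14:54577830-54577859: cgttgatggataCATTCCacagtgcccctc
Ajuba, position -164, minus strand, chr14:54577808-54577837: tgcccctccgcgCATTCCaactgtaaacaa
Ptpn14, position -146, plus strand, chr1:189728110-189728139: cctccccggacgCATTCCtggcccgcccag
Wtip, position -134, minus strand, chr7:34133385-34133414: cgcccccccccaCATTCCagaggccgctgc
Wtip, position -100, minus strand, chr7:34133351-34133380: tctccttcctcaCATTCCtgacggggcaaa

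Start sites here are those of RefSeq and can differ from the limits given for the genes elsewhere, which are from GENCODE. The Ajuba window lay wholly upstream of the GENCODE gene, and the windows of Lats2, Amot, Amotl1 and Amotl2 lay inside theirs. The other Wtip matches lay at positions -245 and -10, and the other Lats2 window held none. The AP-1 motif TGANTCA, found in 7.81% of all windows, was in none of the members' windows. A match of 6 letters is a description of the window and not a binding site.

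Libraries held between 20871566 and 25524349 estimated counts. Levels are counts per 1000000 (CPM) after TMM scaling over the 13 libraries. Fold changes, their standard errors (SE) and 95% confidence intervals come from the quasi-likelihood test of edgeR, and a gene was called where its p, adjusted by Benjamini-Hochberg over all genes tested, was at most 0.05. The authors took the nlsYAP5SA and control littermates from 2 matings, and the labels do not tie the animals to their litters. Litter could therefore not enter the tests. The p-values measure the spread between these mice and treat siblings as independent. Yap1, which encodes the factor itself, lay between 19.9 and 22.3 CPM in controls and between 22.6 and 26.6 CPM in nlsYAP5SA (log2 fold change 0.23, SE 0.06, adjusted p = 0.0361). How the transgene's reads were counted is not given in the sources used here. Neurod6, the locus of the Cre knock-in, was at 91.5 to 110 CPM in controls, 38.9 to 56.7 CPM in nlsYAP5SA and 87.9 to 102 CPM in C57BL/6. The summed level of 4 Y-linked genes (Ddx3y, Eif2s3y, Kdm5d and Uty) was at or above 10 CPM in 5 of 5 controls, 2 of 5 nlsYAP5SA mice and 2 of 3 C57BL/6 mice, and the choroid plexus gene Ttr ranged from 0.782 to 275 CPM over the libraries.

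Against control hemispheres, 4 of the 9 genes rose in nlsYAP5SA, namely Lats2, Amotl2, Ajuba and Ptpn14, and none fell. Amotl2 and Ajuba rose about 3-fold, Lats2 about 2-fold and Ptpn14 1.92-fold, whereas Lats1, Amot, Amotl1, Limd1 and Wtip did not pass the test. Of all 16315 genes tested, 10.8% were called and 7.36% were called higher (1200 genes). Higher genes made up 68.1% of the 1761 calls, 39.7% of 3295 calls with an ordinary offset for GC content and length, and 87.7% of 554 calls with the Y-linked level as a covariate. Of the 9 genes, the 4 called ones had every nlsYAP5SA library above every control library, as did 6.49% of all genes tested (1059 genes). These 4 were already called higher in the same libraries, so the separation is not a further test. In whole tissue, more cells that express a gene and more RNA per cell cannot be told apart.

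**Figure D1:**
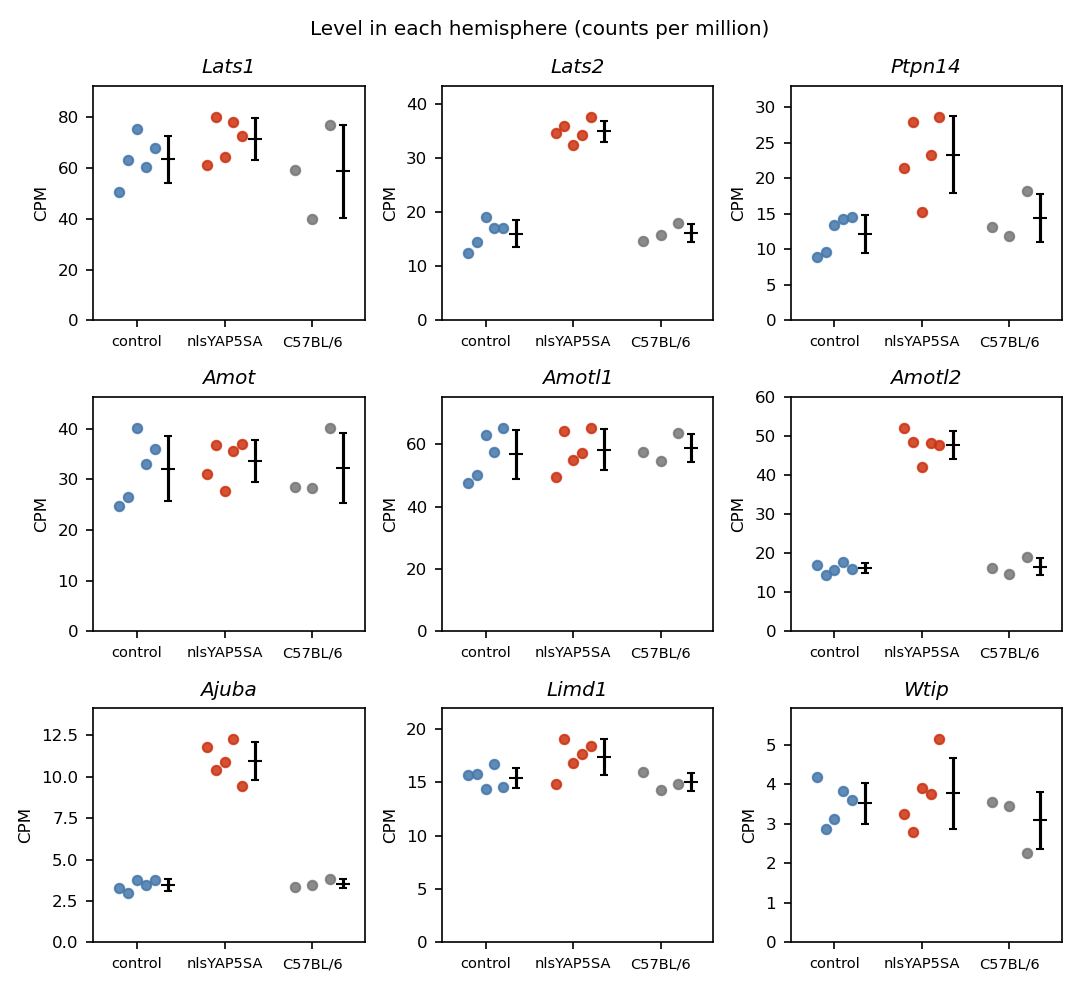
Level of each of the 9 genes in counts per 1000000 (CPM, y axis from 0), with 1 point per hemisphere for control (n = 5), nlsYAP5SA (n = 5) and C57BL/6 (n = 3) mice, and the mean with its SD beside the points. In Lats2, Amotl2, Ajuba and Ptpn14 the nlsYAP5SA points lie above all control points, and in Ptpn14 the lowest of them (15.3 CPM) lies below the highest C57BL/6 point (18.2 CPM).

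The LATS kinases differed from each other. Lats2 (ENSMUSG00000021959, GRCm38 chr14:57689662-57758388, minus strand), a kinase that phosphorylates YAP1, was at 12.5, 14.5, 19.1, 17.0 and 17.0 CPM in controls 1 to 5 and at 34.6, 35.8, 32.4, 34.2 and 37.6 CPM in nlsYAP5SA mice 1 to 5. The lowest nlsYAP5SA library thus held more Lats2 than the highest control, and the spread was narrower in the nlsYAP5SA group (coefficient of variation 5.52%) than among controls (16.0%). The log2 fold change of Lats2 was 1.12 (SE 0.10, interval 0.91 to 1.33, adjusted p = 1.46e-05, edgeR). In the annotation, Lats2 shares up to 1301 bases of exon on the same strand with Gm49361, a gene that has no line of its own among those counted. Lats1 (ENSMUSG00000040021, GRCm38 chr10:7681214-7716460, plus strand), the other kinase, was at 50.3, 63.1, 75.3, 60.1 and 67.7 CPM in controls and at 61.1, 80.1, 64.3, 77.8 and 72.5 CPM in nlsYAP5SA. The groups overlapped in Lats1, with a log2 fold change of 0.17 (SE 0.10, interval -0.06 to 0.39, adjusted p = 0.348, edgeR).

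Among the angiomotins, scaffold proteins of junctions that bind YAP1, only Amotl2 was called. Amotl2 (ENSMUSG00000032531, GRCm38 chr9:102716672-102733418, plus strand) was at 16.9, 14.5, 15.7, 17.8 and 15.9 CPM in controls and at 52.2, 48.6, 42.2, 48.2 and 47.8 CPM in nlsYAP5SA. Its groups were far apart, and it had the smallest p of the 9 genes and ranked 3 among all genes tested (log2 fold change 1.56, SE 0.07, interval 1.41 to 1.72, adjusted p = 1.14e-07, edgeR). Amot (ENSMUSG00000041688, GRCm38 chrX:145446425-145505181, minus strand), the founding member of the family, ran from 24.7 to 40.2 CPM in controls (24.7, 26.6, 40.2, 33.0 and 35.9) and from 27.6 to 37.0 CPM in nlsYAP5SA (31.0, 36.7, 27.6, 35.6 and 37.0). Amotl1 (ENSMUSG00000013076, GRCm38 chr9:14541966-14645056, minus strand), its paralogue, ran from 47.6 to 65.4 CPM in controls (47.6, 50.3, 63.1, 57.5 and 65.4) and from 49.7 to 65.3 CPM in nlsYAP5SA (49.7, 64.4, 54.9, 57.3 and 65.3). The ranges of the nlsYAP5SA mice lay within those of the controls in both genes. The interval of the log2 fold change was -0.21 to 0.34 for Amot (adjusted p = 0.797) and -0.18 to 0.25 for Amotl1 (adjusted p = 0.856, edgeR).

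Of the Ajuba family, which restrains LATS kinases, Ajuba itself had the largest fold change of the 9 genes. Ajuba (ENSMUSG00000022178, GRCm38 chr14:54567472-54577558, minus strand) was at 3.31, 2.97, 3.79, 3.44 and 3.78 CPM in controls, from 76 to 91 counts, and at 11.8, 10.4, 10.9, 12.3 and 9.41 CPM in nlsYAP5SA, from 201 to 284 counts. The log2 fold change of Ajuba was 1.66 (SE 0.10, interval 1.44 to 1.89, adjusted p = 1.09e-06, edgeR), with wide clearance between the groups. Limd1 (ENSMUSG00000025239, GRCm38 chr9:123478706-123521552, plus strand) was at 15.7, 15.8, 14.4, 16.7 and 14.6 CPM in controls and at 14.8, 19.1, 16.8, 17.7 and 18.4 CPM in nlsYAP5SA. Its groups overlapped through nlsYAP5SA mouse 1, and its log2 fold change of 0.17 (SE 0.08, interval -0.01 to 0.34) did not pass the test (adjusted p = 0.234, edgeR). Wtip (ENSMUSG00000036459, GRCm38 chr7:34109543-34133268, minus strand), with 56 to 110 counts a library the least covered of the family beside Ajuba, was at 4.17, 2.86, 3.12, 3.82 and 3.59 CPM in controls and at 3.25, 2.78, 3.90, 3.74 and 5.15 CPM in nlsYAP5SA. The lowest Wtip value of the 10 libraries was in nlsYAP5SA mouse 2 and the highest in nlsYAP5SA mouse 5, and the interval of the log2 fold change, -0.27 to 0.46, was the widest of the 9 genes after that of Ptpn14 (adjusted p = 0.771, edgeR).

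Ptpn14 (ENSMUSG00000026604, GRCm38 chr1:189728268-189876695, plus strand), the phosphatase that binds YAP1, rose with the least margin. It has 13413 bases of exon, and its longest overlap with an exon of the antisense gene Gm26574 is 89 bases. The strand setting of the counting is not given in the sources used here. Ptpn14 was at 8.87, 9.62, 13.4, 14.3 and 14.5 CPM in controls and at 21.5, 27.9, 15.3, 23.3 and 28.7 CPM in nlsYAP5SA. The nlsYAP5SA mouse 3, at 15.3 CPM, stood close to the upper controls, and the coefficient of variation was 22.1% to 23.2% in the 3 groups. The log2 fold change was 0.94 (SE 0.18, interval 0.55 to 1.34, adjusted p = 0.00477, edgeR). With the summed level of the 4 Y-linked genes as a covariate it was 0.70 with an adjusted p of 0.126 and no longer called, whereas Lats2, Amotl2 and Ajuba stayed called there with log2 fold changes of 1.07, 1.49 and 1.75. Among mice with a Y-linked sum of at least 10 CPM, Ptpn14 was between 8.87 and 14.5 CPM in the 5 controls and at 15.3 and 23.3 CPM in the 2 nlsYAP5SA mice. The other 3 nlsYAP5SA mice were between 21.5 and 28.7 CPM, and no control had a Y-linked sum below 10 CPM, so this part of the difference and the Y-linked level cannot be told apart.

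**Figure D2:**
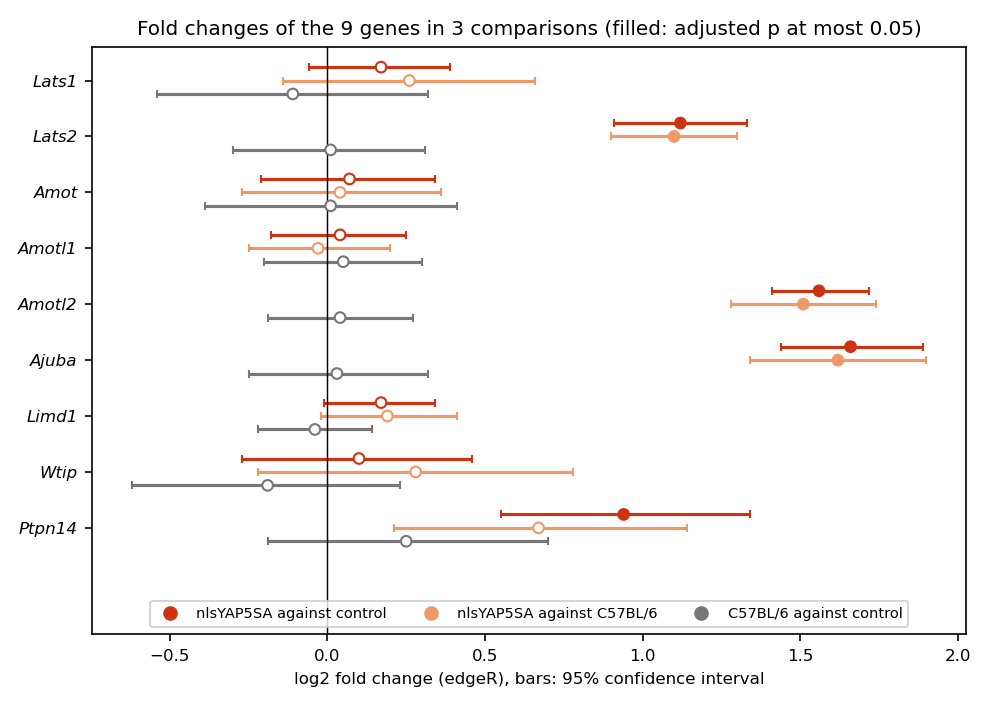
Log2 fold changes of the 9 genes (x axis) from edgeR in 3 comparisons, with 95% confidence intervals as bars and filled points where the adjusted p was at most 0.05. Lats2, Amotl2 and Ajuba are filled against both control and C57BL/6, Ptpn14 is filled against control only (1.92-fold), and no gene is filled in C57BL/6 against control.

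The C57BL/6 mice, which carry neither transgene nor Cre, gave another reference. Lats2 was at 14.7, 15.8 and 17.9 CPM in them, Amotl2 at 16.2, 14.6 and 19.0 CPM, and Ajuba at 3.32, 3.45 and 3.83 CPM. These values overlapped the controls, and none of the 9 genes was called in C57BL/6 against control by edgeR or DESeq2, with 0 at an unadjusted p of at most 0.05 in edgeR, beside 0.169% of 16546 genes tested (28 genes, with 625 at that unadjusted p). The log2 fold changes of the 9 genes there ran from -0.19 for Wtip to 0.25 for Ptpn14, whose interval was -0.19 to 0.70. Without each mouse that of Wtip ran from -0.31 to -0.02 and that of Ptpn14 from 0.04 to 0.37. Lats1 was the most variable of the 9 genes in the C57BL/6 group, at 59.3, 40.0 and 76.6 CPM (mean 58.6 ± 18.3, SD, n = 3). Amot lay at 28.4, 28.2 and 40.1 CPM, Amotl1 at 57.7, 54.8 and 63.6 CPM, Limd1 at 16.0, 14.3 and 14.8 CPM and Wtip at 3.54, 3.45 and 2.26 CPM. The last of these Wtip values lay below the lowest control (2.86 CPM).

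Against C57BL/6, 3 of the 9 genes were called higher in nlsYAP5SA, beside 6.38% of 16641 genes called and 4.16% called higher. Of the 1061 genes called 65.2% were higher, and the count was 401 without C57BL/6 mouse 1, 1757 without C57BL/6 mouse 3, and 2145, of which 42.1% were higher, with the ordinary offset for GC content and length. The comparison shares its nlsYAP5SA mice with the one against control, so the values stand side by side and are not a second experiment. The log2 fold change was 1.10 for Lats2 (SE 0.09, adjusted p = 0.000154), 1.51 for Amotl2 (SE 0.10, adjusted p = 4.45e-05) and 1.62 for Ajuba (SE 0.13, adjusted p = 0.000127, edgeR). Ptpn14 was at 13.2, 11.9 and 18.2 CPM in C57BL/6 mice, of which the highest lay above nlsYAP5SA mouse 3. Its log2 fold change of 0.67 (SE 0.21, interval 0.21 to 1.14) did not pass (adjusted p = 0.0951, edgeR). Without C57BL/6 mouse 3 it was 0.88 with an adjusted p of 0.037, and without nlsYAP5SA mouse 3 it was 0.80 with an adjusted p of 0.0232. The remaining 5 genes had log2 fold changes between -0.03 for Amotl1 and 0.28 for Wtip. Without each mouse that of Lats1 ran from 0.07 to 0.51 and that of Wtip from 0.09 to 0.39.

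Whether relatives in a family changed by different amounts was tested within each library, where the scaling between libraries drops out. The log2 ratio of the counts of a pair was compared between nlsYAP5SA and control mice with an exact permutation test (two-sided, every division of the 10 libraries into 5 and 5), whose smallest p is 0.00794, with adjustment over 7 pairs. Lats2 relative to Lats1 had a mean log2 ratio of -1.98 ± 0.11 in controls and -1.02 ± 0.16 in nlsYAP5SA (SD, n = 5 each, exact permutation p = 0.00794, adjusted 0.0111). In counts, 0.230 to 0.284 Lats2 reads per Lats1 read in controls became 0.439 to 0.567 in nlsYAP5SA. In C57BL/6 mice the ratio was 0.247, 0.396 and 0.233, and the value of mouse 2 came with its low Lats1 level.

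Amotl2 differed from both its relatives in the same way. The log2 ratio of Amotl2 to Amot was -0.97 ± 0.31 in controls and 0.51 ± 0.16 in nlsYAP5SA, and that of Amotl2 to Amotl1 -1.80 ± 0.23 and -0.28 ± 0.21. The ratio of Amotl2 to Amot was below 1 in all 5 controls (0.390 to 0.685) and above 1 in all 5 nlsYAP5SA mice (1.29 to 1.68). The log2 ratio of Ajuba to Limd1 went from -2.15 ± 0.21 to -0.66 ± 0.26, and that of Ajuba to Wtip from -0.01 ± 0.23 to 1.56 ± 0.42. All these 4 pairs gave the smallest p of the exact permutation test, 0.00794, and an adjusted p of 0.0111. The pairs without a called gene differed by -0.04 for Amotl1 to Amot (exact permutation p = 0.627, adjusted 0.667) and by -0.08 for Wtip to Limd1 (exact permutation p = 0.667, adjusted 0.667).

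**Figure D3:**
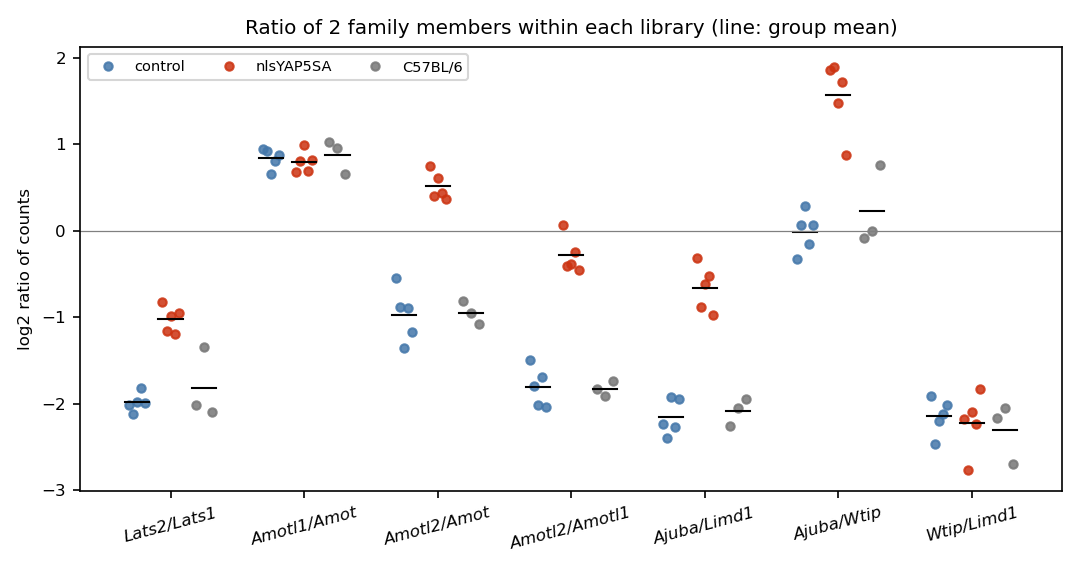
Log2 ratio of the counts of 2 genes of a family in each library (y axis), with 1 point per mouse in the 3 groups and a line at the group mean. In 5 of the 7 pairs the nlsYAP5SA points lie above all control points, and in Amotl1 to Amot and Wtip to Limd1 the groups overlap.

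Levels of different genes were compared per length, as counts per kilobase of merged exon, scaled to a sum of 1000000 over the genes of a library. In controls the order was Lats1 (27.2 ± 4.74), Amotl1 (17.7 ± 3.05), Amot (12 ± 2.83), Amotl2 (8.04 ± 0.951), Limd1 (8.02 ± 0.760), Lats2 (7.23 ± 1.46), Wtip (4.60 ± 0.710), Ajuba (2.97 ± 0.390) and Ptpn14 (2.85 ± 0.757; SD, n = 5). Neighbours in this order overlapped in their ranges, except Wtip and Ajuba. In nlsYAP5SA the order of these levels was Lats1 (30.7 ± 3.61), Amotl2 (24.1 ± 2.95), Amotl1 (18.3 ± 2.07), Lats2 (15.8 ± 1.35), Amot (12.6 ± 1.69), Ajuba (9.50 ± 1.17), Limd1 (9.08 ± 0.832), Ptpn14 (5.51 ± 1.35) and Wtip (4.96 ± 1.07), with overlap between all neighbours but Limd1 and Ptpn14. With the longest transcript as the length, several neighbours changed places. In nlsYAP5SA, Amotl2 (27.8) then stood above Lats1 (25.3), Lats2 (17.3) above Amotl1 (16.7) and Limd1 (9.18) above Ajuba (8.3). In controls, Ptpn14 (2.9) then stood above Ajuba (2.6), and in C57BL/6 Lats2 (7.8) stood above Limd1 (7.74). In C57BL/6 the order began with Lats1 (25.2), Amotl1 (18.0) and Amot (11.9), as in controls, and ended with Ptpn14 (3.35) and Ajuba (2.98), whose ranges overlapped.

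As shares of their family's level per length, Lats2 made up 20.9% ± 1.26 of the LATS kinase transcripts in controls and 34.1% ± 2.42 in nlsYAP5SA (SD, n = 5 each), beside 23.1% in C57BL/6. Amotl2 went from 21.6% ± 3.05 of the angiomotins, the smallest share, to 43.8% ± 3.11, the largest, and was at 21.4% in C57BL/6. Ajuba went from 19.1% ± 2.15 of its family to 40.4% ± 4.75, beside Limd1 with 38.6% ± 3.48, and their ranges in nlsYAP5SA overlapped. With the longest transcript as the length Ajuba had 37.1% there and Limd1 41.0%. The summed level per length of the angiomotins was 37.7 ± 6.34 in controls and 54.9 ± 5.44 in nlsYAP5SA, and that of the Ajuba family 15.6 ± 1.45 and 23.5 ± 0.813, with no overlap between these groups. The sum of the LATS kinases was 34.4 ± 6.12 and 46.6 ± 4.38, and its ranges, 25.2 to 41.7 and 40.3 to 52.5, overlapped.

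**Figure D4:**
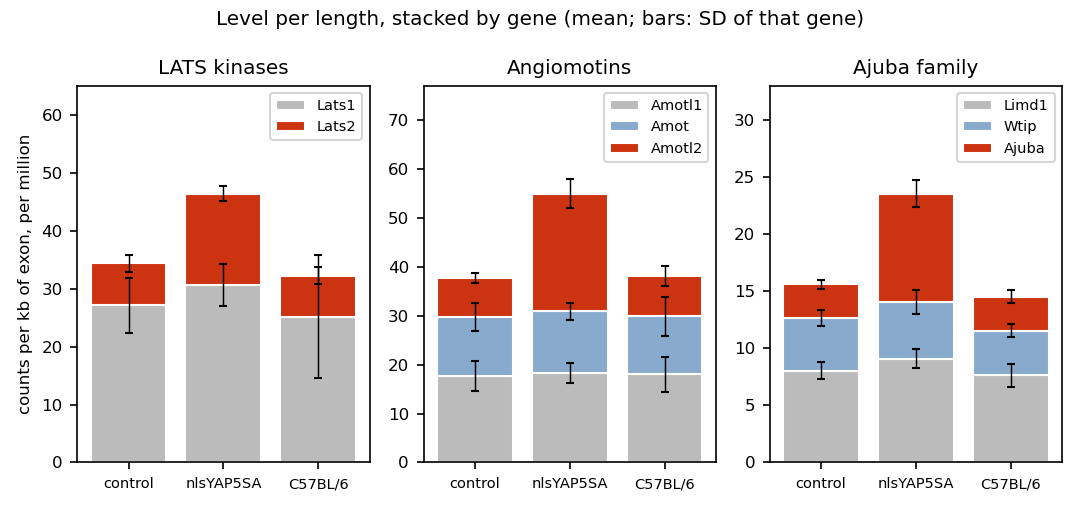
Mean level per length (counts per kilobase of merged exon, scaled to a sum of 1000000, y axis from 0) of the LATS kinases, angiomotins and Ajuba family, stacked by gene, in control (n = 5), nlsYAP5SA (n = 5) and C57BL/6 (n = 3) mice. Error bars are the SD of the gene whose segment they end, and the red segments of Lats2, Amotl2 and Ajuba are taller in nlsYAP5SA while the others change little in height.

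The genes around the 9 in the pathway were counted by role in nlsYAP5SA against control, beside a median log2 fold change of -0.01 and 7.36% called higher over all genes tested. Of 6 relatives of the members (the NDR kinases Stk38 and Stk38l, the LIM proteins Zyx, Trip6 and Lpp, and the phosphatase gene Ptpn21) none was called by edgeR or DESeq2, with 2 at an unadjusted p of at most 0.05 in edgeR and a median of 0.21. Of 13 upstream genes (MST kinases and their partners, Nf2, TAO kinases and others) 1 was called higher and none lower, with a median of 0.11, a share of calls near that over all genes. It was Wwc2, whose KIBRA family protein promotes LATS activity, at 56.2 ± 5.20 CPM in controls and 85.8 ± 2.51 CPM in nlsYAP5SA (SD, n = 5 each, log2 fold change 0.61, SE 0.06, adjusted p = 4.54e-05, edgeR). None of 8 genes for proteins that bind angiomotins or control their stability, such as Magi1, Nedd4 and Tnks, was called by edgeR or DESeq2, with 0 at an unadjusted p of at most 0.05 in edgeR and a median of 0.04.

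Of 7 effector genes, 3 were called higher and none lower, with a median of 0.23. Apart from Yap1 these were Tead1 (log2 fold change 0.78, adjusted p = 0.00206) and Tead3 (0.75, adjusted p = 0.00581, edgeR), which encode DNA-binding partners of YAP1, and Wwtr1, the gene of TAZ, was at 38.3 ± 3.48 CPM in controls and 38.6 ± 5.06 CPM in nlsYAP5SA. Of 19 known target genes of YAP1, 12 were called higher and 1 lower, with a median of 0.53. Ankrd1, a nuclear cofactor, was at 0.132 ± 0.100 CPM in controls and 4.91 ± 1.5 CPM in nlsYAP5SA. Cyr61, a matricellular protein, had a log2 fold change of 2.48 (adjusted p = 4.18e-06), Igfbp3, which binds insulin-like growth factors, 1.56 (adjusted p = 0.000298), and Ctgf 1.43 (adjusted p = 1.82e-06, edgeR). Foxf2, a forkhead factor of pericytes and other mesenchymal cells, was the gene called lower (log2 fold change -0.61, adjusted p = 0.00705, edgeR). The values of Amotl2 (1.56) and Ajuba (1.66) lay among those of the called targets, and those of Limd1, Lats1, Wtip, Amot and Amotl1, from 0.04 to 0.17, lay near the medians of the relatives and upstream genes. In C57BL/6 against control 0 of the 52 genes of these lists that were tested were called by edgeR, with 4 at an unadjusted p of at most 0.05, and 1 was called by DESeq2.

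**Figure D5:**
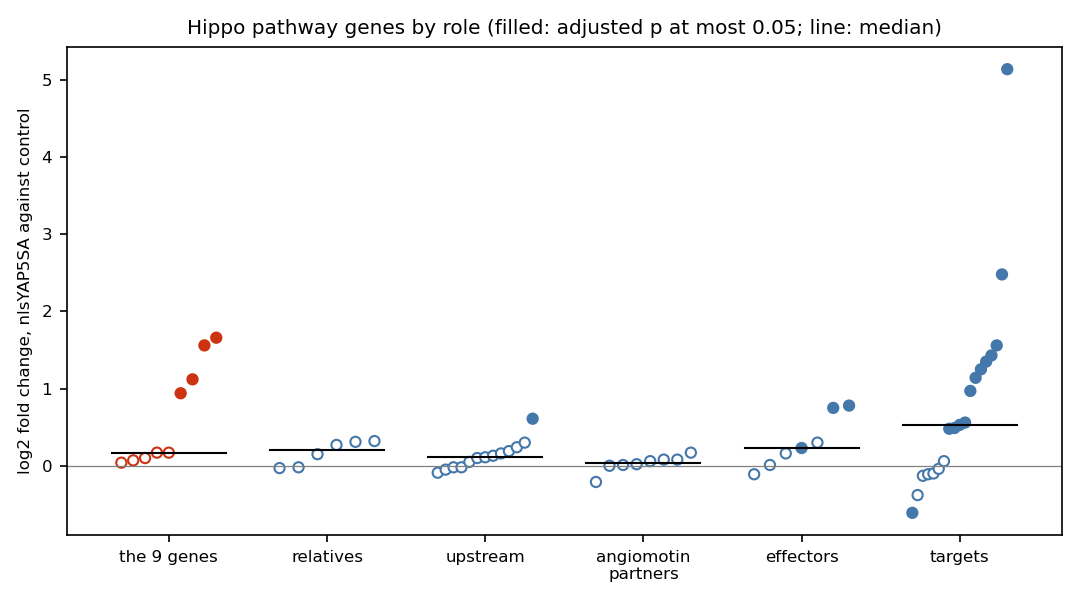
Log2 fold change in nlsYAP5SA against control (y axis, edgeR) of the 9 genes and of 5 lists of Hippo pathway genes by role, with 1 point per gene, filled at an adjusted p of at most 0.05, and a line at the list's median. Among the 9 genes 4 points are filled, among relatives and angiomotin partners none, among upstream genes 1, among effectors 3 and among targets 13, with Ankrd1 at the top (5.14).

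Markers of cell types that could carry these transcripts moved as well, and their part in the results was not tested. All 6 reactive astrocyte markers were called higher in nlsYAP5SA, with sums of 242 to 291 CPM in controls and 870 to 1140 CPM in nlsYAP5SA, as were 5 of 6 microglia markers (275 to 347 and 391 to 513 CPM) and 3 of 6 astrocyte markers (3080 to 5540 and 4310 to 6410 CPM). Of 8 endothelial markers 2 were called lower (219 to 256 and 172 to 225 CPM), as were 2 of 6 pericyte markers (261 to 332 and 168 to 271 CPM). Of 7 fibroblast markers 1 was called higher and 1 lower (268 to 384 and 306 to 448 CPM). Of 6 ependymal markers 1 was called higher (10.9 to 24.3 and 23.2 to 26.6 CPM), as was 1 of 6 choroid plexus markers (10.6 to 233 and 12.4 to 307 CPM), and of 6 progenitor markers 2 (121 to 135 and 113 to 177 CPM). Of 6 inhibitory neuron markers 0 were called by edgeR or DESeq2, with 1 at an unadjusted p of at most 0.05, and of 6 oligodendrocyte markers 0 were called by edgeR, with 5 at that unadjusted p, and 1 by DESeq2. The oligodendrocyte markers had a median log2 fold change of -0.54, with 0 of 6 above 0, and sums of 2080 to 3480 CPM in controls and 1330 to 2870 CPM in nlsYAP5SA. Of 6 excitatory neuron markers 1 was called lower. None of these markers was at 0 in all libraries. With the level of Ttr as a covariate all 4 members stayed called.

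For each of the 4 called genes, the genes with the most similar profile over the 13 hemispheres were sought among 13416 genes, by the mean absolute difference of centred log2 values, and the nearest genes outside the 9 are named. The profiles keep the difference between groups, so that genes with similar fold changes lie near each other. Whether levels vary together between mice within a group was not tested. Outside the 9, Amotl2 was closest to Flnc, the gene of the actin crosslinker filamin C (mean difference 0.0904), followed by Pdgfd (0.133), a growth factor, and Col8a1 (0.143), a collagen. Ajuba was also closest, outside the 9, to Flnc (0.130), followed by Pdpn (0.142), which encodes podoplanin, and Npr3 (0.157), a natriuretic peptide receptor. The profiles of Ajuba and Amotl2 differed by 0.118, so that Amotl2 was nearer to Ajuba than Flnc was, and Ajuba was nearer to Amotl2 than Pdgfd was. Lats2 was closest to Ogn (0.0993), Lama5 (0.101) and Thbs2 (0.102), which encode matrix proteins. Ptpn14 was closest to Itih5 (0.130), Hspg2 (0.131) and Fn1 (0.135), also genes of matrix proteins, of which Fn1 was not called in nlsYAP5SA against control (log2 fold change 0.74, adjusted p = 0.065, edgeR). Ptpn14 differed by 0.377 from Amotl2 and by 0.374 from Ajuba, and by less, 0.194, from Lats2.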

How the data were processed

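RNA from 13 right hemispheres was made into libraries with a kit for mRNA and sequenced on an Illumina HiSeq. The authors used CutAdapt 1.5 for trimming and STAR for mapping to GRCm38 and its Ensembl transcripts, and deposited 1 table of expected counts per gene estimated by RSEM 1.3.0, with no normalization. A strand setting is not given in the sources used here. Reads in exon that Ptpn14 shares with its antisense neighbour Gm26574 (longest overlap 89 bases) therefore cannot be assigned to a gene. RSEM divides reads between similar genes.

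Expected counts were rounded and totalled 20871566 to 25524349 a library. Counts are reads, not molecules. Genes were kept by filterByExpr (minimum count 10, minimum total 15) and tested in R 4.3.3 with edgeR 4.0.16 (TMM, quasi-likelihood, two-sided, only the groups compared). DESeq2 1.42.0 and the other alternatives stand in the closing section. The fits were tested on simulated counts. Ratios used 0.5 added counts. Gene lengths and positions are from GENCODE M21, a later release than the authors' annotation, and symbols were matched for 48349 identifiers. Ctgf and Cyr61 were found through their synonyms Ccn2 and Ccn1.

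The genes named by rule were the members, Yap1 and Neurod6. In each pathway list they were up to 4 called genes with the largest change and up to 2 called the other way. For each called member they were 3 genes with the nearest profile of log2(CPM + 0.5), at a mean count of at least 50. Other genes, such as Wwtr1, Ttr and uncalled genes of the lists, were named as description outside this rule. The members and lists were chosen with earlier results of these data known. Of 32 groups of 5 values (the members and ratios in controls and nlsYAP5SA), 0 held an outlying sample by Dixon's test. Protein sequences were not used here.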

Additional observations from a re-analysis of the deposited data

How the results depend on the processing

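In nlsYAP5SA against control the calls of Lats2, Amotl2 and Ajuba held in all 11 alternatives and without each mouse, and that of Ptpn14 in all but the Y-linked covariate (0.70, adjusted p = 0.126, edgeR). The cause of that loss was not tested. Without each mouse the members called stayed at 4, while the log2 fold change ran from -0.01 to 0.16 for Amot, -0.02 to 0.09 for Amotl1 and -0.04 to 0.19 for Wtip. Over all genes, 554 were called with the Y-linked covariate, 3295 with the ordinary offset for GC content and length, and 1210 to 1891 without each mouse.

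In C57BL/6 against control no setting called a member, and all genes called were 16 with at least 10 counts in every sample, 59 with DESeq2, 44 in a fit of all 13 samples, 15 with the replicate block and 19 to 27 without each mouse. Values near 0 changed sign for Lats2 and Amot with library size alone (-0.01 each), for Lats1 with the Y-linked covariate (0.10), and without single mice for Lats1 (-0.37 to 0.10), Lats2 (-0.09 to 0.08), Amot (-0.20 to 0.10), Amotl1 (-0.03 to 0.10), Amotl2 (-0.09 to 0.12) and Ajuba (-0.05 to 0.07).

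In nlsYAP5SA against C57BL/6 all genes called were 2145 with the ordinary offset (42.1% of them higher), 1727 with the robust offset, 26 with the replicate block and 401 to 1757 without each mouse, the extremes being C57BL/6 mice 1 and 3. Members called were 3 or 4 without each mouse and in the alternatives other than the block. Calls were 581 without C57BL/6 mouse 2 and 636, 645 and 509 without nlsYAP5SA mice 1, 2 and 5. Ptpn14 was called with DESeq2 (adjusted p = 0.023) and with the ordinary (0.0144) and robust (0.0166) offsets. Signs changed for Amotl1 with library size alone (0.01), for Amot with the ordinary offset (-0.03) and the block (-0.01), and without single mice for Amot (-0.03 to 0.24) and Amotl1 (-0.06 to 0.04).

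Replicate numbers did not pair the animals. Deviations from the group means of same-numbered control and nlsYAP5SA mice correlated at 0.31, -0.16, -0.31, -0.09 and 0.11, and 1 of 5 correlated best with its own number. With the number as a block, 1239 genes and the same count of 4 members were called against control. Against C57BL/6, where 3 pairs remain, 0 members were called, with adjusted p values from edgeR of 0.0592 for Lats2 (1.09), 0.052 for Amotl2 (1.52) and 0.0504 for Ajuba (1.64). Paired ratios (0.96 for Lats2 to Lats1, 1.48 and 1.52 for Amotl2 to Amot and Amotl1, 1.49 and 1.58 for Ajuba to Limd1 and Wtip) had an adjusted exact p of 0.0875, since 32 sign patterns allow no p below 0.0625. Without each mouse these 5 ratio differences ran from 0.91 to 1.0, 1.38 to 1.59, 1.43 to 1.60, 1.41 to 1.57 and 1.49 to 1.75 in this order, and that of Wtip to Limd1 from -0.18 to 0.05. With the longest transcript as length, levels moved to 22.4 for Lats1 and 9.32 for Amotl2 in controls, and to 17.3 for Lats2 and 8.30 for Ajuba in nlsYAP5SA. Depth limits Ajuba and Wtip most, with as few as 72 and 56 counts.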

Other observations

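Some mice held the lowest or highest level of their group in several of the 9 genes, which was chosen after the values were seen, is given as a description and was not compared with other genes. Among controls, mouse 1 had the lowest level of 5 of the 9 genes (Lats1, Lats2, Amot, Amotl1 and Ptpn14), and mouse 3 had the highest level of 4 (Lats1, Lats2, Amot and Ajuba). Among C57BL/6 mice, mouse 2 was lowest in 6 genes and mouse 3 highest in 7, Lats1, Amot, Amotl1, Amotl2 and Ptpn14 being in both sets. Among nlsYAP5SA mice, mouse 3 was lowest in 4 genes (Lats2, Amot, Amotl2 and Ptpn14) and mouse 5 highest in 5 (Lats2, Amot, Amotl1, Wtip and Ptpn14). Some of these mice also stood at the other end, control 1 being highest in Wtip, control 3 lowest in Limd1, nlsYAP5SA mouse 5 lowest in Ajuba and C57BL/6 mouse 3 lowest in Wtip. In nlsYAP5SA the highest level of Amotl2 was in mouse 1 and that of Ajuba in mouse 4.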
